A study of Mus musculus with 15 samples.

Results

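The SLC25 family was examined in bulk RNA-seq of dystrophic mouse muscle. Its members were taken as the protein-coding genes of the deposited table whose GENCODE mouse symbol begins with Slc25a followed by a number, which gave 47 genes of 56980 in the table. The mice were DBA/2J-mdx, dystrophin-deficient animals with a severe dystrophic disease, and every group shared this genotype, so no healthy muscle enters any comparison. The tibialis anterior (TA), a hindlimb muscle, came from mice treated from 3 to 5 months of age, for 2 months, with vehicle (4 mice) or with D+Q, the senolytic pair dasatinib and quercetin (4 mice). The heart came from mice treated from 12 to 16 months of age, for 4 months, with vehicle (4 mice) or D+Q (3 mice). Both agents were given by oral gavage 2 times per week. Tissue, age and length of treatment changed together and cannot be told apart, so "heart" and "TA" stand for all of them. All 4 D+Q TA mice were labelled male, whereas the vehicle TA group had 2 males (replicates 1 and 3) and 2 females. The vehicle hearts came from 2 males and 2 females, and the D+Q hearts from 2 females and 1 mouse labelled male.

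SLC25 carriers are nuclear-encoded proteins, nearly all of the mitochondrial inner membrane, that exchange metabolites, nucleotides, phosphate, cofactors and ions between cytosol and matrix. In striated muscle, the ADP/ATP translocases send ATP out of the matrix and return ADP, the phosphate carrier supplies phosphate for ATP synthesis, the aspartate/glutamate and oxoglutarate carriers run the malate-aspartate shuttle that brings reducing equivalents of NADH into the matrix, and the carnitine/acylcarnitine carrier brings in fatty acids. Several substrates are served by more than 1 gene, and such paralogues are known to differ in their use between tissues.

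The authors deposited TPM, a measure of transcript abundance scaled for transcript length and to the same total in each library. Sequencing depth cannot be read from TPM and is unknown, and all precision given here comes from the spread between mice. Genes above 0 numbered 21830 to 25378 per library, and the mitochondrial genome took at least 22.7% of TPM in each. The tissue labels matched their markers, since 4 cardiomyocyte genes summed to 12716 to 16307 TPM in hearts and 70.0 to 146 TPM in TA, and 5 skeletal fibre genes to 36980 to 48343 TPM in TA and 1330 to 1783 TPM in hearts. Heart D+Q replicate 3, labelled male, had 47.2 TPM of Xist, an RNA of the inactive X chromosome, and 0.0159 TPM of the Y-linked Ddx3y, whereas the other 14 libraries matched their labelled sex. Treatment and interaction values of heart members at an unadjusted p under 0.05 are therefore given also without this library. In the D+Q tissue contrast this is done for the counts and for Slc25a12 and Slc25a13. Treatment counts in heart are given also with sex read from expression. TA vehicle replicate 4 stood apart in having the lowest skeletal fibre sum (36980 TPM) and the highest sum of 4 regeneration genes (125 TPM, against 51.5 to 67.4 TPM in the other 3 vehicle TA).

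The stretches just upstream of 4 genes are shown because these genes form paralogue pairs, Slc25a4 with Slc25a5 and Slc25a12 with Slc25a13, in which the share of each gene did not overlap between TA and heart. They were read from GRCm39 (the build the authors used), 5′ to 3′ on the strand of the gene, and end at the base before the start of the canonical GENCODE transcript. Capitals mark the TATA box letters TATAAA, found only in the first of these 4. For Slc25a12, the 74 bases of the window that lie in annotated exons were left out. The stretches lie at chr8:46664326-46664575 (minus strand) for Slc25a4, chrX:36058973-36059222 (plus strand) for Slc25a5, chr2:71198168-71198343 (minus strand) for Slc25a12 and chr6:6217295-6217544 (minus strand) for Slc25a13.
Slc25a4: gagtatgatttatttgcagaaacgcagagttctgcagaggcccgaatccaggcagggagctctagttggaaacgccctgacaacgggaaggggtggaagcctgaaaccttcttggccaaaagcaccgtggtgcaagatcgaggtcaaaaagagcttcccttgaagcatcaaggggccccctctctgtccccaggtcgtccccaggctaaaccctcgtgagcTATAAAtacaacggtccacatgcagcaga
Slc25a5: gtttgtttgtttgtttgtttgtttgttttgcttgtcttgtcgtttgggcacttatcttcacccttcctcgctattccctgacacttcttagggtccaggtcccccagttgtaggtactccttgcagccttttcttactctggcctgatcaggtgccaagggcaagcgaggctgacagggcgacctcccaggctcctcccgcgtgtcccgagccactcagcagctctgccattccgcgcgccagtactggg
Slc25a12: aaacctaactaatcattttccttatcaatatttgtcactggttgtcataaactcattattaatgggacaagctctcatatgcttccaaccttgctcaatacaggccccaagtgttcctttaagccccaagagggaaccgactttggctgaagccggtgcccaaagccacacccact
Slc25a13: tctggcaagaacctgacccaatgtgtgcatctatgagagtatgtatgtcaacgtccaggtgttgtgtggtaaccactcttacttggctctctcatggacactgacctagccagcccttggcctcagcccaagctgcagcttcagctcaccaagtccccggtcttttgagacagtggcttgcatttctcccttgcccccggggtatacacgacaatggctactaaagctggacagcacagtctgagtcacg

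Of 5 motifs searched on both strands in the 250 bases upstream of all 21631 protein-coding genes, TATAAA was present in 12% of promoters and in 3 of the 47 SLC25 promoters (6.38%), those of Slc25a4, Slc25a35 and Slc25a45. In Slc25a4 its first base lay 29 bases before the start. The E-box CACGTG was present in 8 SLC25 promoters (17%) and in 6.29% of all promoters. The NRF1 motif, that of a factor known for genes of oxidative phosphorylation, was present in 2 (Slc25a3 and Slc25a31, 4.26%) and in 3.7% of all. The pattern searched as the MEF2 core allowed any base at its middle positions, so a match need not be a MEF2 motif. It was found upstream of Slc25a10 alone (2.13%, against 3.32%), and the ERR motif TNAAGGTCA in 0 members (against 1.09%). These matches describe letters in a window and not sites bound in these muscles.

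A few carriers made up most of the family's transcripts. The members together summed to 2200 ± 401 TPM (SD, n = 4) in vehicle TA, 2382 ± 194 (n = 4) in D+Q TA, 2158 ± 152 (n = 4) in vehicle heart and 2553 ± 11.5 (n = 3) in D+Q heart. Slc25a4, the ADP/ATP translocase of heart and skeletal muscle, took 45.2% of this sum in vehicle TA, 47.2% in D+Q TA, 37.6% in vehicle heart and 40.7% in D+Q heart. Slc25a3, the phosphate carrier, came next with 21.0% and 21.3% in vehicle and D+Q TA and 27.5% and 27.7% in vehicle and D+Q heart. The 5 most abundant members of each group held 81.0 to 84.9% of the sum. Rank 3 was held by Slc25a12, an aspartate/glutamate carrier, in both TA groups and by Slc25a11, the oxoglutarate carrier, in both heart groups. At the other end, 9 or 10 members of each group averaged under 1 TPM.

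**Figure D1:**
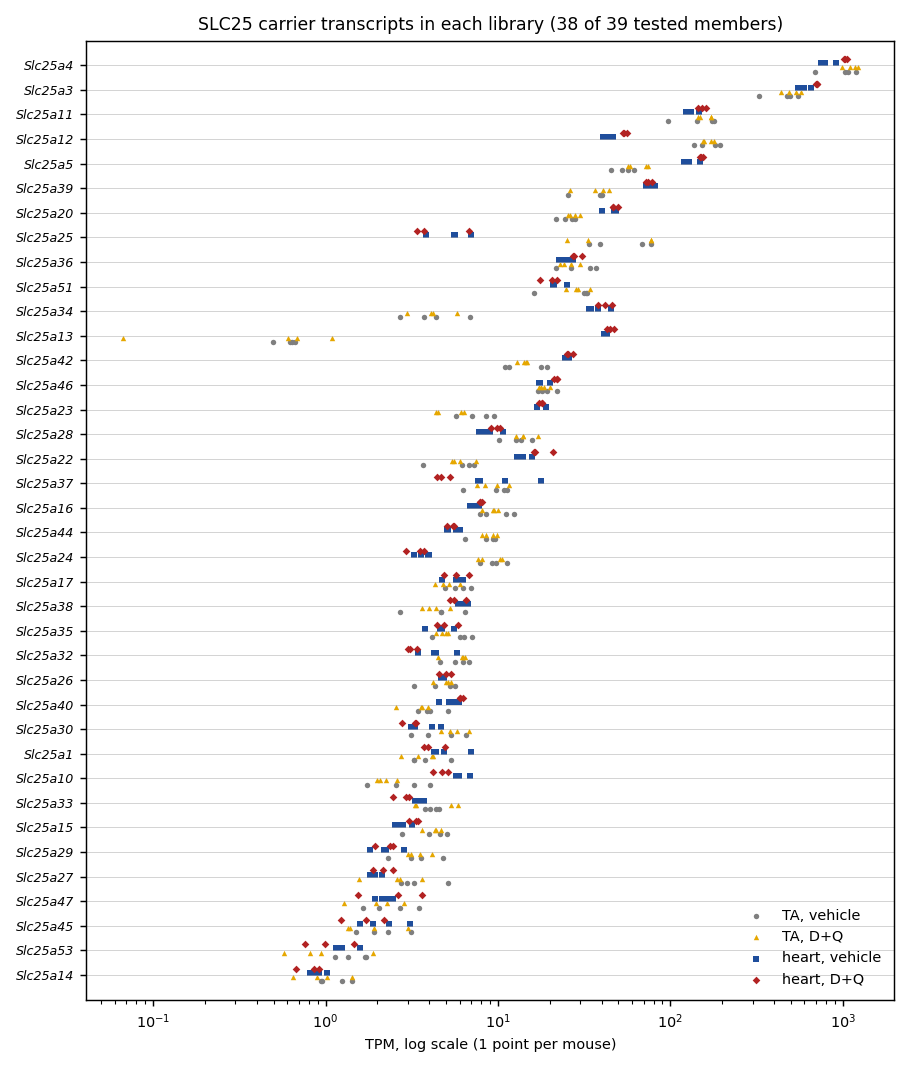
TPM of 38 of the 39 tested SLC25 members in each of the 15 libraries, on a log scale, with 1 point per mouse and genes ordered by their mean level. Slc25a4 and Slc25a3 lie highest in every group, and Slc25a13, Slc25a34 and Slc25a25 have TA and heart points far apart.

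Of the 47 members, 39 reached 0.5 TPM in at least 3 libraries of each comparison and were tested. The other 8 were the ornithine carrier Slc25a2, Slc25a48, the glutamate carrier Slc25a18, the oxodicarboxylate carrier Slc25a21, the testis ADP/ATP translocase Slc25a31, the ATP-Mg/phosphate carrier Slc25a41, and Slc25a43 and Slc25a54. Their highest TPM in any library ran from 0 for Slc25a54 to 0.833 for Slc25a43. Slc25a5 shares sequence with the pseudogene Slc25a5-ps, and Slc25a29 and Slc25a47 overlap on opposite strands of chromosome 12, so the division of reads among these is uncertain.

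To ask how the carriers differ between the muscles, vehicle hearts were compared with vehicle TA. A gene was called at an adjusted p (limma, Benjamini-Hochberg over all genes tested) under 0.05 and an absolute log2 fold change over 0.5 on the log2(TPM + 0.5) scale, which understates the change of genes with low TPM. Of the 39 members, 16 were called (41%), close to the 38.9% of all 16893 genes tested. There were 9 members higher in heart (23.1%, against 14.8% of all genes) and 7 lower (17.9%, against 24.1%). Without TA vehicle replicate 4 the lower members were 11 (28.2%, against 29.3% of all genes). In bulk tissue, more cells of a type and more RNA per cell cannot be told apart. The median log2 fold change, heart over TA, was -0.10 over the members and -0.16 over all genes. Median-of-ratios scaling brought the median of all genes to 0.01. With it 13 members were called higher (33.3%, against 19.6% of all genes) and 5 lower (12.8%, against 17.3%).

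The widest contrast among the tested members was that of a malate-aspartate shuttle carrier. Slc25a13 (citrin, chromosome 6 from 6040252 to 6217294), an aspartate/glutamate carrier best known from liver, was at 0.638, 0.624, 0.498 and 0.664 TPM in the 4 vehicle TA and at 41.0, 42.9, 42.6 and 42.8 TPM in the 4 vehicle hearts. It was near 0 in every TA and at a steady level in every heart, a log2 fold change of 5.28 (SE 0.12, adjusted p = 1.1e-09 from limma). Its paralogue Slc25a12 (aralar, chromosome 2 from 71101407 to 71198167), the form of brain and muscle, was at 182, 195, 152 and 137 TPM in vehicle TA and at 40.8, 40.7, 43.1 and 46.5 TPM in vehicle heart. All hearts lay below all TA, with a log2 fold change of -1.94 (SE 0.13, adjusted p = 2.1e-06 from limma). Slc25a12 thus made up 99.6 ± 0.0759% (SD, n = 4) of the summed TPM of both genes in vehicle TA and 50.2 ± 1.39% (n = 4) in vehicle heart. That sum was 167 ± 26.5 TPM in vehicle TA and 85.1 ± 3.23 TPM in vehicle heart.

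Slc25a11, which exchanges oxoglutarate for malate in the same shuttle, was at 174, 179, 144 and 97.0 TPM in vehicle TA and 124, 131, 147 and 146 TPM in vehicle heart. The groups overlapped and its log2 fold change was -0.08 (SE 0.19), a value that took the other sign with median-of-ratios scaling (0.11) and without TA vehicle replicate 1 or 2. Slc25a22, a glutamate carrier, was at 6.20, 6.78, 7.29 and 3.66 TPM in vehicle TA and at 14.1, 12.9, 15.7 and 13.5 TPM in vehicle heart. It was higher in every heart, by 1.20 on the log2 scale (SE 0.19, adjusted p = 0.00076 from limma). Among 6 enzymes of the malate-aspartate and glycerol phosphate shuttles, Mdh1, the cytosolic malate dehydrogenase, was higher in heart (log2 fold change 1.07, SE 0.12). Both glycerol phosphate dehydrogenases, which serve the other route for NADH, were lower, Gpd1 by a log2 fold change of -3.56 (SE 0.18) and Gpd2 by -3.39 (SE 0.11), and the remaining 3 enzymes were not called.

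Among the ADP/ATP translocases, Slc25a4 (chromosome 8 from 46656538 to 46664325) was at 1195, 1039, 1077 and 691 TPM in vehicle TA and at 749, 787, 918 and 793 TPM in vehicle heart. The groups overlapped through TA replicate 4, and the log2 fold change of -0.28 (SE 0.17, adjusted p = 0.21 from limma) was not called. Slc25a5 (chromosome X from 36059223 to 36062462), the translocase of many proliferating cells, was at 57.0, 52.8, 62.0 and 45.4 TPM in vehicle TA and at 120, 129, 148 and 120 TPM in vehicle heart. It was higher in every heart, by 1.25 on the log2 scale (SE 0.13, adjusted p = 3.6e-05 from limma), and its share of the translocase sum was 5.25 ± 0.716% (SD, n = 4) in vehicle TA and 13.7 ± 0.393% (n = 4) in vehicle heart. Slc25a3 was at 552, 494, 479 and 328 TPM in vehicle TA and at 554, 571, 656 and 594 TPM in vehicle heart. Every heart lay above every TA, the nearest pair by a small margin, and the log2 fold change of 0.38 (SE 0.16, adjusted p = 0.074 from limma) was not called, though with median-of-ratios scaling it was (0.57). Of 10 tested partners (ATP synthase subunits, mitochondrial creatine kinases and cyclophilin D), Ppif, which encodes cyclophilin D, was higher in heart by a log2 fold change of 1.62 (SE 0.12) and Ckmt1 by 1.16 (SE 0.19), and the other 8 were not called.

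The ATP-Mg/phosphate carriers, which set the adenine nucleotide content of the matrix and are opened by cytosolic calcium, also changed places. Slc25a25 was at 39.3, 33.6, 68.5 and 77.1 TPM in vehicle TA and at 5.59, 3.81, 5.64 and 6.99 TPM in vehicle heart, a log2 fold change of -3.14 (SE 0.28). Slc25a24 was at 11.3, 9.69, 9.22 and 7.89 TPM in vehicle TA and 3.59, 3.93, 3.97 and 3.26 TPM in vehicle heart, a log2 fold change of -1.25 (SE 0.15). Slc25a23 went the other way, with 8.58, 9.45, 5.71 and 7.08 TPM in vehicle TA, 16.8, 18.9, 19.0 and 16.9 TPM in vehicle heart and a log2 fold change of 1.19 (SE 0.15). No TA value overlapped a heart value for these 3 genes. Slc25a25 made up 74.0 ± 10.4% (SD, n = 4) of the summed TPM of the 4 ATP-Mg/phosphate genes in vehicle TA and 20.3 ± 4.75% (n = 4) in vehicle heart, and Slc25a23 11.7 ± 5.36% and 66.1 ± 3.68%.

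Slc25a20, the carnitine/acylcarnitine carrier of fatty acid oxidation, was at 28.2, 27.0, 24.4 and 21.7 TPM in vehicle TA and at 47.0, 40.1, 48.6 and 47.8 TPM in vehicle heart. It was higher in every heart, by 0.85 on the log2 scale (SE 0.12, adjusted p = 0.00029 from limma). Of its 6 carnitine partners 4 were called, all higher in heart, namely Cpt1a (log2 fold change 1.31, SE 0.18), Cpt2 (1.00, SE 0.13), Cpt1b (0.74, SE 0.15) and Slc22a5 (0.56, SE 0.18). Cpt1a and Cpt1b make acylcarnitine at the outer membrane, Cpt2 releases the acyl group inside, and Slc22a5 takes up carnitine at the cell surface. The branched-chain amino acid carrier Slc25a44 was lower in heart, at 9.43, 9.67, 8.57 and 6.46 TPM in vehicle TA and 5.16, 5.68, 6.06 and 5.05 TPM in vehicle heart. Its log2 fold change of -0.58 (SE 0.16) lay near the threshold, and it was not called with median-of-ratios scaling or without heart vehicle replicate 4.

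Other called members carry cofactors, iron-related substrates or substrates that are less certain. The orphan carrier Slc25a34 was at 4.36, 6.93, 2.69 and 3.74 TPM in vehicle TA and at 37.9, 34.9, 45.4 and 34.0 TPM in vehicle heart, a log2 fold change of 3.03 (SE 0.21). Slc25a39, which carries glutathione, was at 40.2, 39.3, 39.4 and 25.6 TPM in vehicle TA and at 72.3, 81.4, 76.2 and 73.5 TPM in vehicle heart, a log2 fold change of 1.08 (SE 0.15). Both were higher in every heart, as were the dicarboxylate carrier Slc25a10 (log2 fold change 1.01, SE 0.20) and the coenzyme A carrier Slc25a42 (0.78, SE 0.19). Slc25a27, a relative of the uncoupling proteins, was lower in heart, at 3.27, 5.16, 2.73 and 2.97 TPM in vehicle TA and 1.82, 2.14, 1.93 and 1.82 TPM in vehicle heart, a log2 fold change of -0.70 (SE 0.18). The mitoferrin Slc25a28, an iron importer, was called just past the threshold (-0.51, SE 0.16), at 15.9, 12.8, 13.5 and 10.1 TPM in vehicle TA and 8.94, 10.6, 8.46 and 7.78 TPM in vehicle heart. Its groups overlapped, since heart replicate 2 lay above TA replicate 4. It was not called under 4 of 10 alternatives that kept every mouse, among them median-of-ratios scaling (-0.33). Nor was it called on leaving out any 1 of 6 of the 8 mice (TA replicates 1, 2 and 3 and heart replicates 1, 3 and 4). The other 23 tested members were not called.

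**Figure D2:**
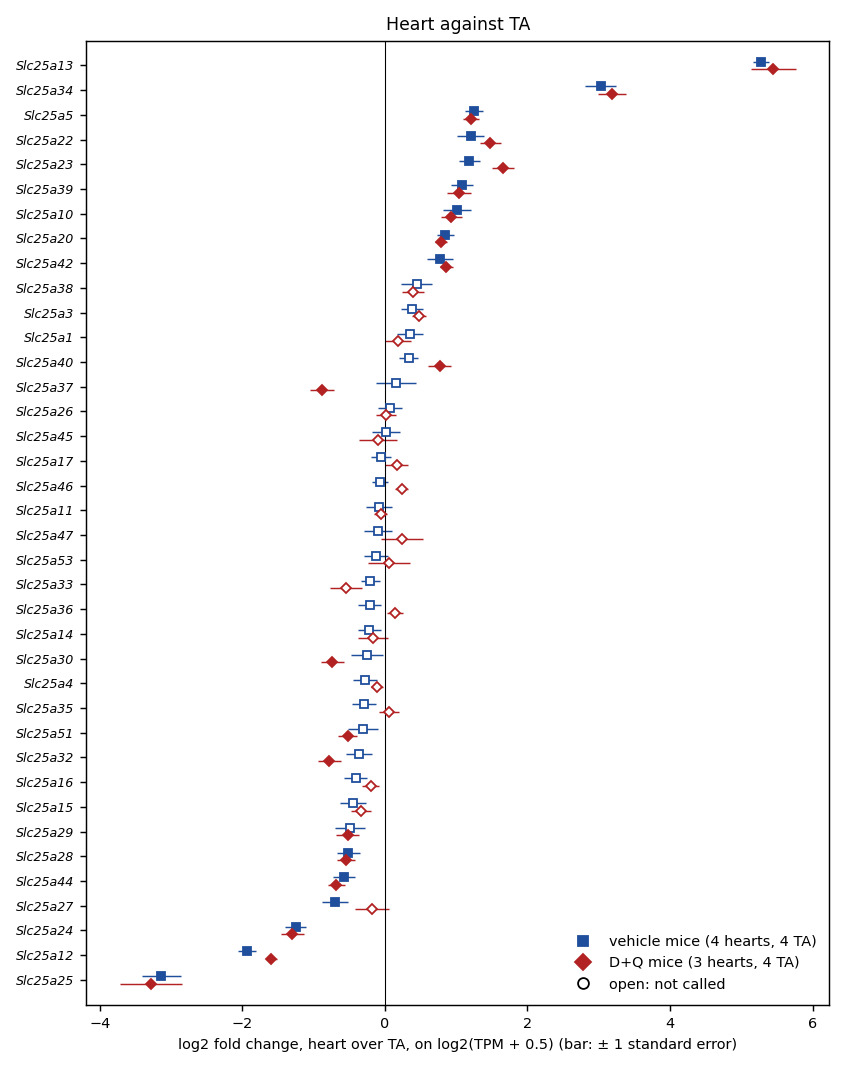
Log2 fold change, heart over TA, on log2(TPM + 0.5) for 38 of the 39 tested members, with bars of 1 standard error on either side, in vehicle mice (squares) and in D+Q mice (diamonds); filled symbols were called. Slc25a13 (5.28 and 5.45) and Slc25a34 (3.03 and 3.18) lie farthest to the right and Slc25a25 (-3.14 and -3.28) farthest to the left in both kinds of mice.

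Around the family, the calcium uniporter Mcu and its regulator Micu3 were lower in heart with log2 fold changes of -1.51 (SE 0.12) and -1.26 (SE 0.13). Of 16 other mitochondrial solute transporters tested, 6 were called lower, among them Mcu, Micu3, the outer-membrane channels Vdac1 and Vdac3 and the sideroflexin Sfxn3, and 1, Sfxn1, was called higher. Of 13 genes for the import of carriers, Timm10 (0.84, SE 0.14) and Tomm40 were called higher and Timm29 lower. Among 4 tested relatives of the family without the Slc25a symbol, Ucp3, the uncoupling protein of skeletal muscle, was lower in heart (-1.92, SE 0.20) and Ucp2 higher (0.80, SE 0.23).

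The D+Q mice gave a separate set of mice for the same contrast, 3 hearts against 4 TA, with no covariate. All 4 of these TA were labelled male and all 3 hearts had Xist, so tissue and sex cannot be told apart. Of the 39 members 21 were called (53.8%, against 36.8% of all 16381 genes), 10 higher in heart (25.6%, against 15.6%) and 11 lower (28.2%, against 21.2%). With median-of-ratios scaling there were 12 higher (30.8%, against 18.8% of all genes) and 8 lower (20.5%, against 17.7%). The 9 members called higher in vehicle hearts were all called higher here, 100% of the vehicle list and 90% of the D+Q list, and Slc25a40, a glutathione carrier, was added. Of the 7 members lower in vehicle hearts 6 were lower here, 85.7% of the vehicle list and 54.5% of the D+Q list. The overlap of calls over all genes was not counted, so these shares have no background and show nothing particular to the family. Without heart replicate 3 there were 10 higher (25.6%, against 11.4% of all genes) and 10 lower (25.6%, against 18%).

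In D+Q mice, Slc25a13 was at 0.681, 1.09, 0.0669 and 0.603 TPM in TA and at 47.4, 44.6 and 43.0 TPM in heart, a log2 fold change of 5.45 (SE 0.31). Slc25a12 was at 157, 180, 154 and 172 TPM in TA and at 53.9, 53.4 and 56.4 TPM in heart, a log2 fold change of -1.59 (SE 0.08). Without heart replicate 3 the log2 fold changes were 5.48 (SE 0.38) for Slc25a13 and -1.62 (SE 0.10) for Slc25a12. Slc25a12 was 99.6 ± 0.233% (SD, n = 4) of both genes in D+Q TA and 54.8 ± 1.79% (n = 3) in D+Q heart, so the near absence of Slc25a13 from TA and the mixture in heart were present in treated mice too. Slc25a5 was at 72.5, 58.6, 56.6 and 74.3 TPM in TA and at 148, 151 and 155 TPM in heart (1.21, SE 0.11). Slc25a34 was at 5.77, 4.07, 2.95 and 4.22 TPM in TA and at 41.7, 45.7 and 38.2 TPM in heart (3.18, SE 0.19). Slc25a39 was at 36.4, 44.1, 26.3 and 40.7 TPM in TA and at 72.6, 78.5 and 74.2 TPM in heart (1.04, SE 0.17). For each of these genes the groups were apart without overlap.

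Slc25a22 was at 6.03, 5.40, 5.55 and 7.42 TPM in D+Q TA and at 16.4, 21.0 and 16.3 TPM in D+Q heart (log2 fold change 1.48, SE 0.15). Slc25a20 was at 28.1, 26.3, 25.3 and 29.8 TPM in TA and at 46.4, 49.8 and 46.5 TPM in heart (0.79, SE 0.09). Both were higher in every heart. Of the ATP-Mg/phosphate carriers, Slc25a23 was at 4.36, 6.38, 4.52 and 6.07 TPM in TA and 18, 17.9 and 17.2 TPM in heart (1.66, SE 0.15). Slc25a24 was at 10.5, 7.65, 8.08 and 10.2 TPM in TA and 3.51, 3.73 and 2.93 TPM in heart (-1.30, SE 0.16). Slc25a25 was at 33.5, 77.1, 77.4 and 25.1 TPM in TA and 6.77, 3.39 and 3.71 TPM in heart (-3.28, SE 0.43), the widest spread within a group among these genes.

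The members called lower in D+Q hearts and not in vehicle hearts were Slc25a29, Slc25a30, Slc25a32, Slc25a37 and Slc25a51. Slc25a29 (log2 fold change -0.52, SE 0.16), a carrier of basic amino acids, was not called on leaving out any 1 of 5 of the 7 mice (TA replicates 1 and 2 and each heart). Slc25a51 (-0.53, SE 0.13), the NAD carrier, was not called without TA replicate 4 (-0.45) or heart replicate 2 (-0.43). Slc25a28, called lower in both kinds of mice (-0.54, SE 0.13, here), was not called without TA replicate 4 (-0.46) or heart replicate 1 (-0.49). Of 9 alternatives that kept every mouse, Slc25a29 was not called under 5, and Slc25a51 and Slc25a28 under 3 each. Median-of-ratios scaling was among these for all of them (-0.42 for Slc25a29, -0.41 for Slc25a51 and -0.42 for Slc25a28). Slc25a37, the mitoferrin known from red-cell precursors, was at 9.93, 8.41, 7.61 and 11.5 TPM in D+Q TA and at 4.46, 4.65 and 5.29 TPM in D+Q heart (log2 fold change -0.88, SE 0.16). Slc25a32, which carries folate and FAD, was at 6.26, 4.51, 6.16 and 6.44 TPM in D+Q TA and at 3.41, 3.01 and 3.08 TPM in D+Q heart (-0.78, SE 0.16). Whether such a contrast differed between treated and untreated mice is the same question as whether D+Q acted differently in the 2 tissues, for which the interaction test is given at the end.

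**Figure D3:**
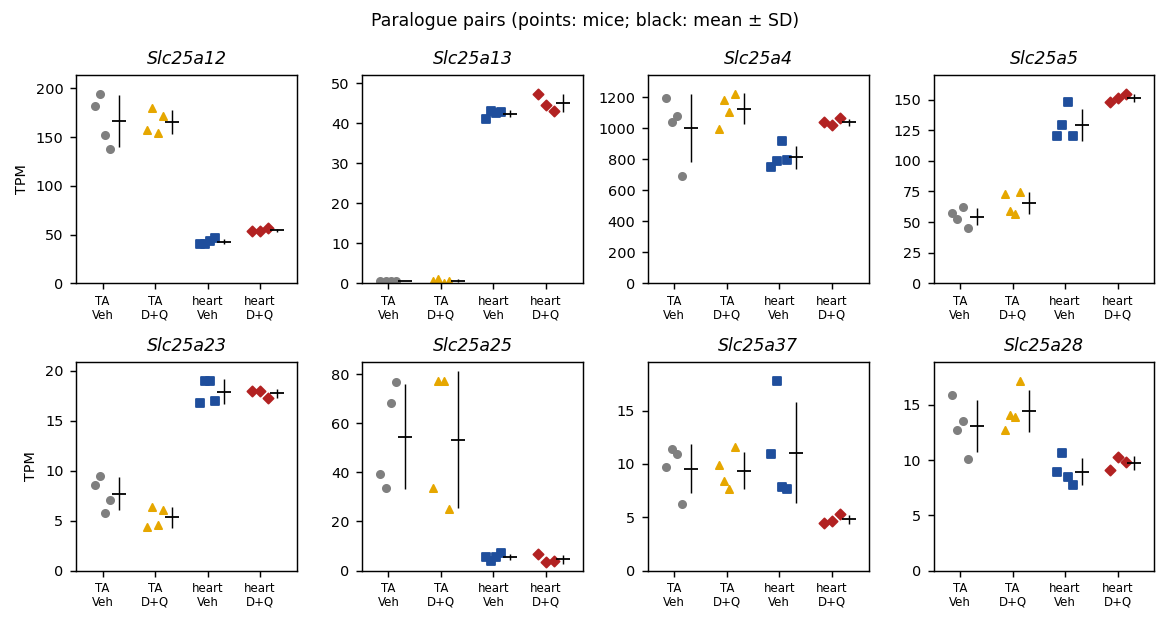
TPM of 4 pairs of paralogues in each mouse of the 4 groups, each panel with its own linear axis from 0 and with the group mean ± SD in black. Slc25a12 lies at 137 to 195 TPM in TA and at 40.7 to 56.4 TPM in hearts, while Slc25a13 lies near 0 in TA and at 41.0 to 47.4 TPM in hearts, and Slc25a37 is at 4.46 to 5.29 TPM in the 3 D+Q hearts.

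To ask whether the senolytic treatment changed the carriers in young skeletal muscle, D+Q TA were compared with vehicle TA. The model held 1 surrogate variable, a covariate estimated from the data. No member was called (0 of 39), and neither was any of the 16298 genes tested (0%). The model held no term for sex, which differed between the groups. The surrogate variable was -0.20 and -0.34 in the females and ran from -0.42 to 0.70 in the males, so it did not stand for sex. With labelled sex in its place, 0% of members and 0% of all genes were called. The authors, who tested read counts at the same thresholds, reported genes higher and genes lower in this contrast. In simulated data, which held no hidden factor, the fit used here recovered 39% of genes given a log2 change of 1. The 0 calls therefore do not show that no gene changed. At an unadjusted p under 0.05 there were 0 members, against 2.99% of all genes. The groups overlapped for all 39 members, whereas 1.52% of all genes did not overlap. The median log2 fold change, D+Q over vehicle, was -0.05 over members and -0.07 over all genes, and the smallest adjusted p of a member was 0.999.

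The 3 members in each direction with the smallest p had these values. Slc25a23 was at 4.36, 6.38, 4.52 and 6.07 TPM under D+Q and 8.58, 9.45, 5.71 and 7.08 TPM under vehicle, a log2 fold change of -0.44 (SE 0.20). Slc25a17, a peroxisomal cofactor carrier, was at 5.17, 4.82, 4.33 and 6.06 TPM under D+Q and 6.24, 6.94, 4.91 and 5.63 TPM under vehicle (-0.21, SE 0.18). Slc25a35, an orphan carrier, was at 5.12, 4.98, 4.38 and 4.74 TPM under D+Q and 6.33, 7.05, 4.14 and 6.03 TPM under vehicle (-0.22, SE 0.19). In each case single vehicle mice lay within or below the D+Q values. On the positive side, Slc25a5, whose values are given above, had a log2 fold change of 0.19 (SE 0.12). Slc25a4 was at 993, 1179, 1101 and 1223 TPM under D+Q (0.18, SE 0.18), and Slc25a28 at 12.7, 14.0, 13.9 and 17.2 TPM under D+Q and 15.9, 12.8, 13.5 and 10.1 TPM under vehicle (0.14, SE 0.17). Slc25a4 and Slc25a28 took the other sign when labelled sex replaced the surrogate variable (-0.02 and -0.03), and vehicle replicate 4 was the lowest mouse for both. Of the other carriers of energy supply, Slc25a3 was at 487, 539, 437 and 571 TPM and Slc25a11 at 145, 172, 149 and 173 TPM under D+Q, each within or near the range of the vehicle mice.

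None of the 6 lists of partners held a called gene in TA, nor any gene at an unadjusted p under 0.05. These lists cover ATP synthase and creatine kinase partners, shuttle enzymes, carnitine partners, import genes, other solute transporters and relatives of the family.

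To ask the same in the aged heart, 3 D+Q hearts were compared with 4 vehicle hearts in a model with labelled sex. No member was called (0 of 39), against 0.316% of all 16132 genes, 17 higher and 34 lower. At an unadjusted p under 0.05 there were 6 members on the higher side (15.4%, against 9.65% of all genes) and 4 on the lower side (10.3%, against 7.99%). Without D+Q replicate 3 these were 3 and 5, and with sex read from expression 4 and 5. The share of all genes was not counted in these refits, so these counts have no background to be set against. The 3 D+Q values exceeded the 4 vehicle values for 9 members (23.1%, against 9.63% of all genes) and were lower than all of them for 4 (10.3%, against 5.57%). The summed TPM of the family was 2542 to 2565 in D+Q hearts and 2015 to 2374 in vehicle hearts, without overlap.

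The abundant carriers of ATP supply lay on the higher side. In D+Q hearts Slc25a12 was at 53.9, 53.4 and 56.4 TPM, and in vehicle hearts at 40.8, 40.7, 43.1 and 46.5 TPM, a log2 fold change of 0.36 (SE 0.06, adjusted p = 0.089 from limma). Slc25a4 was at 1037, 1017 and 1062 TPM under D+Q and 749, 787, 918 and 793 TPM under vehicle (0.35, SE 0.08, adjusted p = 0.11 from limma). Slc25a3 was at 707, 703 and 710 TPM under D+Q and 554, 571, 656 and 594 TPM under vehicle (0.24, SE 0.07, adjusted p = 0.14 from limma). For all 3 genes the groups did not overlap, and none passed the adjusted threshold. Without D+Q replicate 3 the log2 fold changes were 0.35 (SE 0.09) for Slc25a12, 0.27 (SE 0.09) for Slc25a4 and 0.20 (SE 0.09) for Slc25a3. Slc25a22 (0.32, SE 0.11), Slc25a46, an outer-membrane member tied to mitochondrial shape (0.25, SE 0.07), and Slc25a5 (0.21, SE 0.08) were the remaining members with an unadjusted p under 0.05. Without D+Q replicate 3 Slc25a22 was at 0.37 (SE 0.15), Slc25a46 at 0.19 (SE 0.10) and Slc25a5 at 0.12 (SE 0.08). Slc25a13 was at 47.4, 44.6 and 43.0 TPM under D+Q (0.08, SE 0.05), Slc25a11 at 153, 160 and 145 TPM (0.15, SE 0.08) and Slc25a20 at 46.4, 49.8 and 46.5 TPM (0.06, SE 0.08).

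No gene of the 6 lists of partners was called. They were counted at an unadjusted p under 0.05, which 9.65% of all genes reached with a positive log2 fold change and 7.99% with a negative one. Of 10 tested partners of the ADP/ATP and phosphate carriers 9 were positive in this way, led by the ATP synthase subunits Atp5f1c (0.33, SE 0.05) and Atp5f1e (0.31, SE 0.12), and Ckmt1, at under 1 TPM on average, had a negative one (-0.61, SE 0.18). Of 6 shuttle enzymes 4 were positive and 0 negative, led by Got1 (0.30, SE 0.08) and Mdh1 (0.23, SE 0.07). Of 16 other solute transporters 6 were positive and 2 negative, of 13 import genes 2 were positive and 0 negative, and of 6 carnitine partners 1 was positive (Cpt1b) and 1 negative (Cpt1a). Of 4 tested relatives of the family, 0 were positive and 1 negative, Ucp2 (-0.95, SE 0.18).

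Cell markers moved with these values in the hearts. The 4 cardiomyocyte genes summed to 15421 to 16307 TPM in D+Q hearts and 12716 to 13761 TPM in vehicle hearts, with log2 fold changes of 0.24 to 0.32 and an unadjusted p under 0.05 for all 4, and none was at 0. The 4 atrial genes summed to 382 to 427 TPM in D+Q hearts and 862 to 4260 TPM in vehicle hearts, with 4 of 4 on the lower side, 3 of them called (Myl7, Myl4 and Sln), and none at 0 in every library. The 4 fibroblast genes summed to 392 to 462 TPM in D+Q hearts and 491 to 694 TPM in vehicle hearts. The part of these markers in the carrier values was not tested.

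On the lower side, Slc25a37 (mitoferrin-1, chromosome 14 from 69479297 to 69522561) had the largest log2 fold change of the family. It was at 4.46, 4.65 and 5.29 TPM under D+Q and 10.9, 17.8, 7.83 and 7.66 TPM under vehicle, a log2 fold change of -1.07 (SE 0.28, adjusted p = 0.13 from limma). All D+Q hearts lay below all vehicle hearts, and vehicle replicate 2 was the highest. The log2 fold change was -0.73 (SE 0.15) without that mouse and -1.29 (SE 0.36) without D+Q replicate 3. Slc25a37 imports iron for haem synthesis and is known for its high level in red-cell precursors. The 4 erythroid genes Hbb-bs, Hbb-bt, Hba-a1 and Alas2 summed to 498, 1082, 315 and 291 TPM in vehicle hearts and to 23.7, 60.6 and 108 TPM in D+Q hearts. Their log2 fold changes lay between -3.07 and -2.42, each with an unadjusted p under 0.05, and in D+Q replicate 1 Hbb-bt and Hba-a1 were at 0. The hearts with more erythroid RNA were thus those with more Slc25a37, in the same order over all 7 hearts, and the part of this RNA in the Slc25a37 value was not tested. Its paralogue Slc25a28, found in most cells, was at 9.06, 10.3 and 9.86 TPM under D+Q and 8.94, 10.6, 8.46 and 7.78 TPM under vehicle (0.10, SE 0.11). Slc25a37 made up 33.0 ± 1.89% (SD, n = 3) of both mitoferrins in D+Q heart, 53.8 ± 6.55% (n = 4) in vehicle heart and 42.0 ± 4.58% (n = 4) in vehicle TA.

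**Figure D4:**
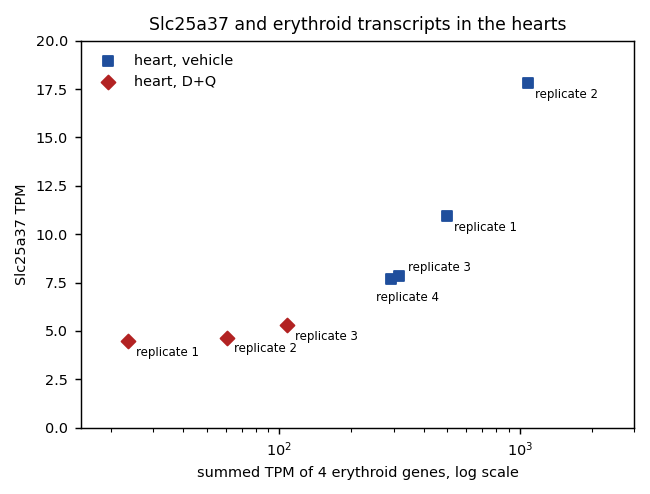
Slc25a37 TPM against the summed TPM of 4 erythroid genes (log scale) in each heart, with vehicle as squares and D+Q as diamonds. The 3 D+Q hearts sit at 4.46 to 5.29 TPM with erythroid sums of 23.7 to 108 TPM, and the 4 vehicle hearts at 7.66 to 17.8 TPM with sums of 291 to 1082 TPM.

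The other members on the lower side were the dicarboxylate carrier Slc25a10, at 5.10, 4.21 and 4.75 TPM under D+Q and 5.72, 6.91, 5.91 and 5.96 TPM under vehicle (log2 fold change -0.36, SE 0.11). Slc25a32 was at 3.41, 3.01 and 3.08 TPM under D+Q and 3.46, 5.79, 4.36 and 4.23 TPM under vehicle (-0.46, SE 0.14). Slc25a33, a pyrimidine nucleotide carrier, had a log2 fold change of -0.32 (SE 0.10). Without D+Q replicate 3 the log2 fold changes were -0.42 (SE 0.14) for Slc25a10, -0.58 (SE 0.18) for Slc25a32 and -0.24 (SE 0.13) for Slc25a33. For these 3 genes the groups did not overlap, by a narrow margin for Slc25a32, and the adjusted p from limma ran from 0.16 to 0.19.

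**Figure D5:**
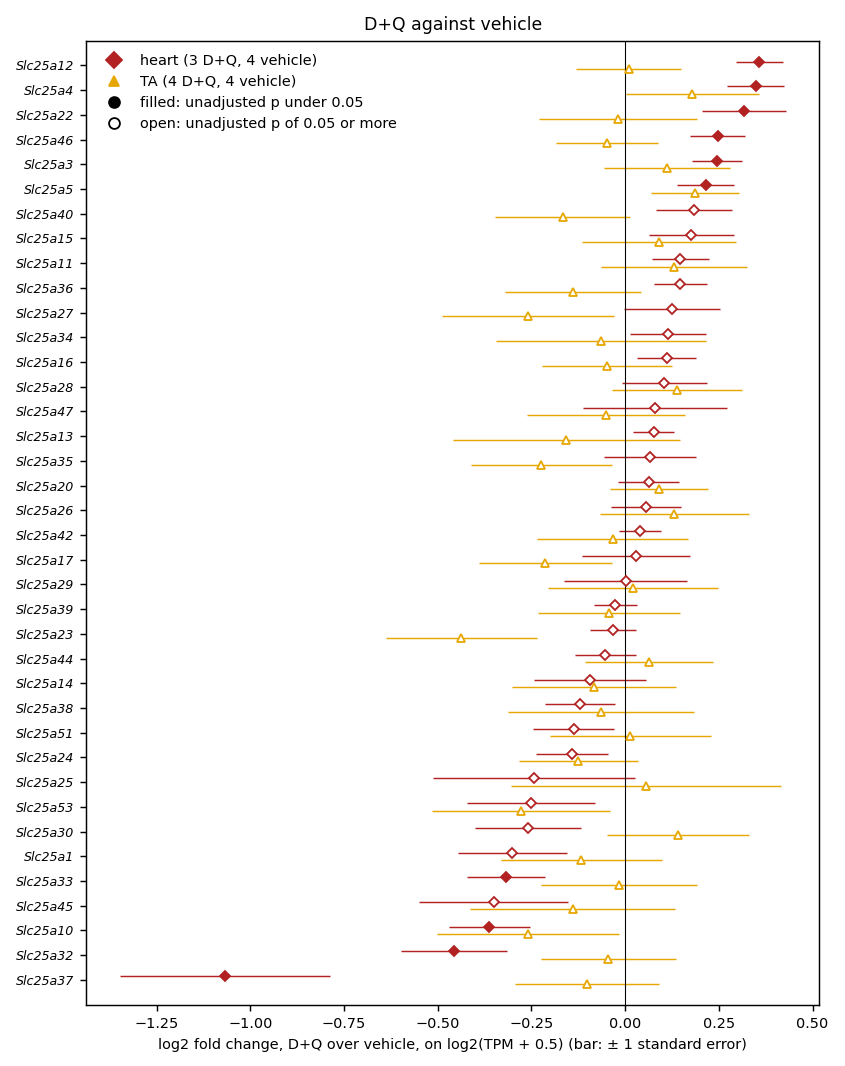
Log2 fold change, D+Q over vehicle, on log2(TPM + 0.5) for 38 of the 39 tested members in heart (diamonds) and TA (triangles), with bars of 1 standard error on either side; filled symbols have an unadjusted p under 0.05, and none was called. In heart 10 members are filled, from Slc25a37 at -1.07 to Slc25a12 at 0.36, and in TA 0 are.

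Whether the effect of D+Q differed between heart and TA was tested with an interaction term over all 15 libraries, as the effect in heart minus that in TA. No member was called (0 of 39), against 0.0616% of 17868 genes, and the smallest adjusted p of a member was 1. At an unadjusted p under 0.05 there were 2 members (5.13%, against 4.22% of all genes), Slc25a12 with a difference of 0.37 (SE 0.17) and Slc25a37 with -1.02 (SE 0.39). The latter was -0.59 (SE 0.31) without heart vehicle replicate 2, the mouse with the most erythroid RNA. Without heart D+Q replicate 3 the differences were 0.36 (SE 0.21) for Slc25a12 and -1.14 (SE 0.48) for Slc25a37. The next members by p were Slc25a46 (0.28) and Slc25a23 (0.37) on the positive side and Slc25a32 (-0.43) and Slc25a30 (-0.50) on the negative side. The larger values in heart than in TA were therefore not shown to differ between the tissues.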

How the data were processed

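Total RNA of TA and heart was made into libraries with the Watchmaker mRNA Library Prep Kit and sequenced on an Illumina instrument. Per the labels and the methods, the authors trimmed reads with Trim Galore 0.6.10, quantified them with Salmon 1.10.3 against GRCm39 and summarised them per gene with tximport. The annotation release and the handling of strand are not given in the sources used here. The deposited values are TPM, which sum to 1000000 in each of 15 libraries, so depth is unknown. The DESeq2 test of the authors needs counts and was not run. At the same thresholds it gave the paper more genes in each direction, in TA and in heart, than were called here. The labels do not say more than that each library is a separate sample, so p-values measure the spread between these samples.

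Members were matched through GENCODE M39 (GRCm39), in which 56236 of 56980 identifiers were found. The members and all gene lists were chosen with earlier results of these data known. The fits used limma 3.58.1 (R 4.3.3), as lmFit and eBayes with a trend on log2(TPM + 0.5), keeping each gene that reached 0.5 TPM in 3 or more libraries of the fit. P-values were adjusted by Benjamini-Hochberg over all genes tested, and genes were called at an adjusted p under 0.05 and an absolute log2 fold change over 0.5. The TA fit held 1 surrogate variable (5 rounds of re-weighting, written out for these values), the heart, vehicle tissue and interaction fits labelled sex, and the D+Q tissue fit no covariate. The fits were tested on simulated data with 200 changed genes. The simulated noise was independent between genes and held no hidden factor, and only genes with a mean log2 value over 1 were changed. Far more genes than 200 were called in the real tissue comparisons, so the rates need not hold for the real data. A log2 change of 1 was recovered for 39% of them in the TA fit, 68.5% in heart and 38.5% in the interaction. It was recovered for 65% in the vehicle tissue fit and 58% in the D+Q tissue fit. A log2 change of 2 was recovered for 88 to 96.5%.

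Values in every mouse are given for 8 carriers of muscle energy supply, for up to 6 called members in each direction with the largest fold changes and no overlap, and, where none was called, for the 3 members in each direction with the smallest p. Of the other lists, counts and the leading or called genes are given. The values of 1 member and of 1 gene of the other lists are not reported here, though both were fitted and are in the counts. Alternatives were other pseudocounts (0.1 and 1) and filters, median-of-ratios scaling, no trend, no minimum fold change, other covariates, the replicate number as a block and leaving out each mouse. Sex read from expression, labelled males only in TA, and TPM rescaled without the mitochondrial genome were chosen after seeing the data.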

Additional observations from a re-analysis of the deposited data

Results flagged for a closer look

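Among 78 groups of 4 mice (25 members and the family sum in 3 groups), 4 held 1 mouse whose gap to the nearest other mouse exceeded Dixon's critical share of the group's range; chance alone gives about 1 in 20. Slc25a39 in vehicle TA was 25.6 TPM in replicate 4, against 39.3 TPM in the nearest mouse. Slc25a32 in D+Q TA was 4.51 TPM in replicate 2, against 6.16 TPM. Slc25a13 in vehicle heart was 41.0 TPM in replicate 1, against 42.6 TPM. Slc25a46 in vehicle heart was 20.1 TPM in replicate 3, against 17.6 TPM. The groups of 3 D+Q hearts were not examined in this way.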

How the results depend on the processing

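The counts of members called stayed within 1.5 times of those reported under every alternative other than leaving out a mouse, and the 0 calls in both treatment comparisons and the interaction stayed at 0 also there. Leaving out 1 mouse gave 9 to 10 higher and 5 to 11 lower members between vehicle heart and vehicle TA, with 11 lower without TA vehicle replicate 4. These were 23.1 to 25.6% and 12.8 to 28.2% of members. Of all genes, 13.1 to 16.5% were called higher and 20.8 to 29.3% lower in the same refits. For D+Q mice there were 10 to 11 higher and 9 to 12 lower members (25.6 to 28.2% and 23.1 to 30.8%). Of all genes, 10.3 to 16.1% were higher and 18 to 24% lower there, so the share of all genes moved as well. In TA, Slc25a4 and Slc25a28 were -0.018 and -0.027 with labelled sex or with labelled males only, and with 1 mouse omitted their lowest values were -0.050 and -0.020, both on omitting D+Q replicate 3, and their highest 0.27 and 0.23. In the vehicle tissue comparison Slc25a11 was 0.11 with median-of-ratios scaling, 0.0065 without TA vehicle replicate 1 and 0.065 without replicate 2, with a lowest value of -0.29 without replicate 4. In D+Q mice, median-of-ratios scaling gave 0.013 for Slc25a4 and 0.061 for Slc25a11, and leaving out the mitochondrial genome gave 0.036 for Slc25a11. Slc25a3 in D+Q mice, heart over TA, had a log2 fold change of 0.48 (SE 0.10, adjusted p = 0.0047 from limma). Its groups did not overlap, and it missed the call only through the minimum fold change. Under 6 alternatives it was called, at up to 0.60. The cause was not tested in any of these cases.

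Over all genes, the 17 higher and 34 lower calls in heart fell to 0 and 0 with no filter on low values (more genes tested) and to 0 and 0 without heart vehicle replicate 2, and were 2 and 11 without the trend, 3 and 22 with sex read from expression, and 64 and 72 without vehicle replicate 3. There Slc25a4 had an adjusted p from limma of 0.047, at a log2 fold change of 0.42 (range of its adjusted p over alternatives 0.047 to 0.36). The mice of equal replicate number are different animals, and their deviations correlated at -0.279 to 0.032, so the numbers do not pair them. With the replicate number as a block, 0 members were called in either treatment comparison and 0 for the interaction. In vehicle tissue 9 were higher (23.1%, against 14.9% of all genes) and 7 lower (17.9%, against 24.3%). In D+Q tissue 11 were higher (28.2%, against 14.5%) and 9 lower (23.1%, against 18.1%). TPM gives no depth, so levels under about 1 TPM carry an unknown counting error, and groups of 3 and 4 mice leave changes of 1 on the log2 scale partly undetected.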

Other observations

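Members varied more between mice in TA than in heart. The median coefficient of variation over the tested members was 21.4% in vehicle TA, 15% in D+Q TA, 9.05% in vehicle heart and 8.98% in D+Q heart, with no test, since members of a library share its scaling. The steadiest were Slc25a33 in vehicle TA (8.25%), Slc25a42 in D+Q TA (5.64%), Slc25a26, the S-adenosylmethionine carrier, in vehicle heart (1.89%) and Slc25a3 in D+Q heart (0.53%). The most variable were Slc25a34 in vehicle TA (40.7%), Slc25a13 in D+Q TA (68.8%), where it lay at or near 1 TPM or less, Slc25a37 in vehicle heart (42.9%) and Slc25a47 in D+Q heart (40.4%).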
